A study of Mus musculus with 30 samples.

Results

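The leukemia inhibitory factor (LIF) and interleukin 6 (IL6) receptor genes with their JAK and STAT partners were examined in 3T3-L1 cells, a mouse preadipocyte line that turns into adipocytes in adipogenic medium. The 9 genes were listed by name and found in the count table of 54232 genes by their Ensembl identifiers: the receptor subunits Lifr, Il6st and Osmr, the kinases Jak1 and Jak2, the transcription factors Stat3, Stat5a and Stat5b, and the inhibitor Socs3. All 9 passed the filter on low counts, as did 20139 genes in all. RNA was sequenced in 6 groups of 5 libraries: Control, pNaKtide (0.7 µM), IS (indoxyl sulfate, 100 µM), IS + pNaKtide, oxLDL (oxidized low density lipoprotein, 50 µg/mL) and oxLDL + pNaKtide, at the same doses. IS is a uremic toxin, oxLDL was given as an oxidant stress, and pNaKtide is a cell permeant peptide made to block signaling of the Na,K-ATPase through the kinase Src. Control cells and all treated cells shared an adipogenic medium with insulin, dexamethasone, isobutylmethylxanthine and indomethacin, and dexamethasone and insulin themselves act on genes of cytokine signaling. The sample labels give 5 days of treatment, while the study's methods give a shorter one with repeated doses. Source and cell line are labelled as 3T3 cells, the extraction note speaks of adipose tissue, and here the RNA was treated as that of 1 cell line. The labels do not say whether the 5 libraries of a group came from separate cultures, so p-values measure only the spread between these libraries, which may be technical.

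Cytokines of the IL6 family signal through receptors that share the subunit gp130, the product of Il6st. LIF binds the LIF receptor, the product of Lifr, which pairs with gp130, and oncostatin M uses the product of Osmr with gp130, or in part the LIF receptor. Bound receptors activate the kinases JAK1 and JAK2, which phosphorylate STAT3, and STAT dimers then enter the nucleus and switch on genes, among them Socs3, whose product blocks the receptor and the kinases. STAT5A and STAT5B mainly serve growth hormone, prolactin and related cytokines through JAK2 and take part in adipocyte differentiation, which LIF also promotes in its early phase. All of these steps are regulated on the protein by phosphorylation, which was not measured here.

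The start regions of 3 of the genes are shown, Socs3 as a textbook STAT target and Lifr and Jak2 for their changes. Of the 9 genes, Lifr and Jak2 changed most with oxLDL against Control and with oxLDL + pNaKtide against oxLDL. Each window of RefSeq on GRCm38.p6 runs from 250 bases before to 50 bases after an annotated start, 5′ to 3′ on the gene's strand. Capitals mark TTCNNNGAA, the palindromic core of a STAT site, or GCGTG on either strand, the core bound by the aryl hydrocarbon receptor, of which IS is a known ligand. The windows are Lifr (chr15:7129322-7129621, plus strand), Jak2 (chr19:29251553-29251852, plus strand) and Socs3 (chr11:117969317-117969616, minus strand).
Lifr: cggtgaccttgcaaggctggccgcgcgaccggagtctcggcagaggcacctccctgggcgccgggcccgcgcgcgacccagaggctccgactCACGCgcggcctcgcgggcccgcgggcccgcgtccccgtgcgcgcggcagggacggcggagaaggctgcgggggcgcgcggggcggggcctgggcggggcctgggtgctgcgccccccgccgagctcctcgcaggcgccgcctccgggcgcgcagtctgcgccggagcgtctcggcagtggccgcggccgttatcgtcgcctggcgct
Jak2: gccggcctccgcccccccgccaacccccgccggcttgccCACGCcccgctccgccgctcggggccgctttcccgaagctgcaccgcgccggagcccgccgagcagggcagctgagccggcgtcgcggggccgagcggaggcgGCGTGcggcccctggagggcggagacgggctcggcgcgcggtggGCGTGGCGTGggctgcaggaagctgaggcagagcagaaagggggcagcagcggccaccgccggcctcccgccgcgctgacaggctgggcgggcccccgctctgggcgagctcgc
Socs3: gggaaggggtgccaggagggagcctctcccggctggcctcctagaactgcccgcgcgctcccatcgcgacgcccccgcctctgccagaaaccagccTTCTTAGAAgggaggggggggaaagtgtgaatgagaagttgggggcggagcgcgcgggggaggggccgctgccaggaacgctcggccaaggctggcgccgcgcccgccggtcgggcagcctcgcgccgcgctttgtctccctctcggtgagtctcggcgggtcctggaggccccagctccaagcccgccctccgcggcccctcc
The Socs3 window held 1 STAT match, TTCTTAGAA, whose first base lies at position -154 from the start, and it held no GCGTG. It was the only one of 12 windows of the 9 genes with a STAT match, and 8.3% of 32851 mouse windows of this length held one. The Jak2 window held 4 matches to GCGTG and the Lifr window 1. In all, 6 of the 12 windows held GCGTG, as did 32.4% of all mouse windows. A match is a description of the letters and does not show that a factor was bound.

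The genes lie on 5 chromosomes of GRCm38, and the annotation lists all 9 as protein coding. Lifr (ENSMUSG00000054263, chr15:7090614-7197489) and Osmr (ENSMUSG00000022146, chr15:6813577-6874969) stand 215644 bases apart on chromosome 15. Il6st (ENSMUSG00000021756) is at chr13:112464070-112510086, Jak1 (ENSMUSG00000028530) at chr4:101152367-101265282 and Jak2 (ENSMUSG00000024789) at chr19:29251828-29313080. Stat5b (ENSMUSG00000020919, chr11:100780731-100850724), Stat5a (ENSMUSG00000004043, chr11:100859351-100885169) and Stat3 (ENSMUSG00000004040, chr11:100885098-100939540) follow each other within 158810 bases. Socs3 (ENSMUSG00000053113) is at chr11:117966079-117970047. Exons of Stat3 and Stat5a, on opposite strands, share 72 bases at their ends, and the strand setting of the counting is not given in the sources used here. Of the 50 base stretches of the longest Stat5a transcript, 10.8% also occur in that of Stat5b, so reads from these stretches cannot be placed in either gene with certainty.

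The libraries held between 6945498 and 15159877 counted reads, with a median of 11524210. Adipocyte markers were abundant in all groups, with a summed level of 10 of 10 markers between 10797 and 18107 CPM, a gene's counts relative to the TMM-scaled library size. Their median sum was 15576.5 CPM in Control, 12358 with IS, 13537 with oxLDL and 16356 with oxLDL + pNaKtide, and the part of this shift in the results was not tested. The preadipocyte markers found, 7 of 8, summed to between 254 and 464 CPM, with medians of 384 in Control, 323 with oxLDL and 367 with oxLDL + pNaKtide. Dlk1, a preadipocyte marker lost on differentiation, averaged 148 CPM in Control, 91.7 with oxLDL and 184 with oxLDL + pNaKtide, and Pdgfra went the other way with 116, 137 and 92.2 CPM. The part of these markers in the results was not tested either. Of 6 macrophage markers the defining genes Ptprc and Itgam had a count of 0 in all 30 libraries, and the sum stayed between 6.73 and 13.9 CPM. The 4 endothelial markers summed to at most 0.613 CPM and the 3 skeletal muscle markers to at most 2.42 CPM. In bulk RNA fewer cells of a type and less RNA per cell cannot be told apart. The libraries Control replicate 1 and IS replicate 4 stood apart from their groups. On the first principal component, with 64.4% of the variance, Control replicate 1 scored -25.8 among the oxLDL libraries (-41.9 to -14.7), and the other control libraries 6.47 to 29.9. IS replicate 4 scored 28.2, and the other IS libraries -36.7 to -23.2, so it lay within the range of the other control libraries. Whether the labels of these libraries were exchanged was not tested and cannot be told from the files. The counts of the 9 genes called by edgeR are given with and without these libraries. On the same component oxLDL + pNaKtide replicate 4, with the fewest reads, scored 67.5, and the rest of its group 14.5 to 33.2. pNaKtide replicate 3 scored -5.36, and the rest of its group 15.9 to 36.6.

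To compare levels between genes, FPKM was used, which is per length. Of the receptor genes, Il6st had the highest level, with 13.1 ± 1.70 FPKM (SD, n = 5) in Control, against 3.16 ± 0.759 for Lifr and 2.63 ± 0.285 for Osmr. The shared subunit stood above the other receptor genes, and the ratio of Lifr to Il6st in FPKM was 0.24 ± 0.029. Jak1 was the most abundant of the 9 genes with 32.4 ± 1.95 FPKM, and Jak2 had 3.80 ± 0.852. Stat3 had 21.0 ± 1.75 FPKM, Stat5a 16.5 ± 1.91 and Stat5b 13.1 ± 1.00. Socs3 was at 5.85 ± 0.787 FPKM. Over all 30 libraries Lifr varied most in CPM, with a coefficient of variation of 32.9%, followed by Jak2 with 24.8% and Osmr with 18.1%. Stat3, with 8.94%, and Jak1, with 9.31%, varied least.

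**Figure D1:**
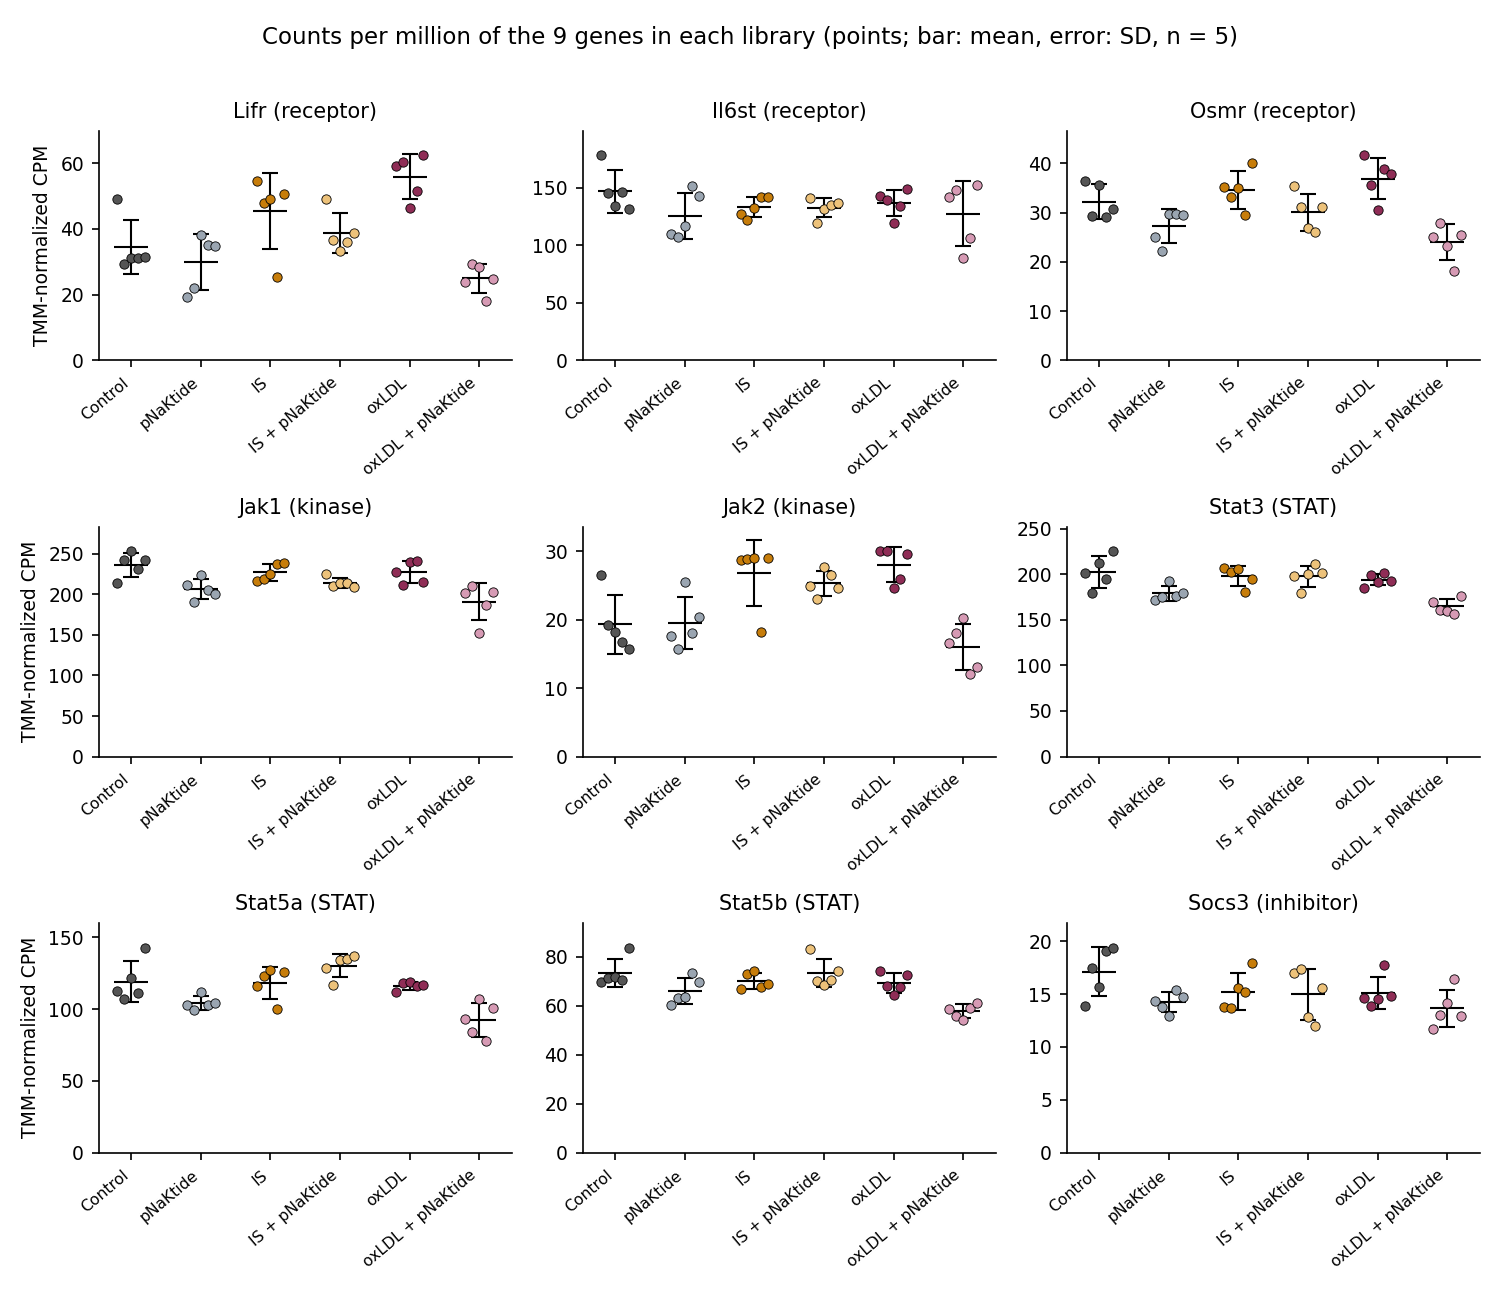
TMM-normalized CPM (y axes, starting at 0) of each of the 9 genes in the 6 groups. Points are libraries, the horizontal bar is the mean and the error bar the SD of 5 libraries. For Lifr, all 5 oxLDL + pNaKtide libraries (18.2 to 29.4) lie below all 5 oxLDL libraries (46.3 to 62.4), and 1 control library, at 49.1, lies among the latter.

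The first comparison asked what oxLDL did to these genes. Lifr and Jak2 rose with oxLDL, and the other receptor, kinase, STAT and inhibitor genes did not pass the test. So 2 of 9 genes were called, both higher, where 36% of all genes tested were called and 18.1% were called higher. The median log2 change of the 9 genes was -0.06, beside 0.04 for all genes. Changes were tested with edgeR's quasi-likelihood test on counts, in 1 model of the 6 groups, with p-values adjusted by the Benjamini-Hochberg method over all genes tested and a threshold of 0.1.

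Lifr, the receptor subunit that binds LIF, had 59.0, 60.3, 46.3, 51.5 and 62.4 CPM in the 5 oxLDL libraries. In the control libraries it had 49.1, 29.3, 31.1, 31.3 and 31.6 CPM. The groups overlapped only through Control replicate 1, which lay inside the oxLDL range, while the other 4 control libraries were all below it. The log2 fold change was 0.70 ± 0.18 (SE), or 1.62-fold (edgeR, adjusted p = 0.0100). Without Control replicate 1 and IS replicate 4 the log2 change was 0.86.

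Jak2, the kinase that several cytokine receptors without a kinase domain of their own depend on, moved in the same way. It had 30, 30, 24.6, 26 and 29.6 CPM with oxLDL, and 26.6, 19.3, 18.2, 16.8 and 15.7 CPM in Control. Again Control replicate 1 was the only control library within the oxLDL range. The log2 fold change was 0.54 ± 0.14, or 1.45-fold (edgeR, adjusted p = 0.0110), and it was 0.68 without the libraries Control replicate 1 and IS replicate 4.

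The other 7 genes had log2 changes between -0.18 and 0.20, with SE of 0.07 to 0.12, and adjusted p of 0.182 or more in edgeR. Osmr, at 36.9 ± 4.15 CPM against 32.2 ± 3.52, and Socs3, at 15.1 ± 1.51 against 17.1 ± 2.31, were nearest to the threshold. Both were called when Control replicate 1 and IS replicate 4 were left out, with log2 changes of 0.25 and -0.25, which gave 4 called genes where 47.6% of all genes were called in that fit. None of the 9 genes had groups that did not overlap, and 8.35% of all genes had. On the FPKM scale the ratio of Lifr to Il6st was 0.419 ± 0.0213 with oxLDL and 0.24 ± 0.029 in Control, without overlap (0.395 to 0.445 against 0.209 to 0.284).

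The second comparison asked what IS did. Jak2 was the only gene of the 9 called, with a log2 change of 0.47 ± 0.14 or 1.39-fold (edgeR, adjusted p = 0.0767), where 7.94% of all genes were called. It had 28.8, 28.9, 29.1, 18.2 and 29.0 CPM with IS. Replicate 4 lay inside the control range (15.7 to 26.6), and the other 4 IS libraries lay above it. The call did not hold when any 1 of 8 of the 10 libraries of these groups was left out, that is all but Control replicate 1 and IS replicate 4. The largest adjusted p of these fits was 0.220, and they called 0.0745% to 1.51% of all genes. Without Control replicate 1, 33.2% of all genes were called, and without IS replicate 4, 34.5%. The call of Jak2 also ended in a model of the compared groups alone, which called 0% of all genes.

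Lifr had 54.7, 47.8, 49.1, 25.5 and 50.7 CPM with IS. Here too replicate 4 was the low library, below all 5 controls, and 4 of the 5 were at or above 47.8. The log2 change of 0.40 ± 0.18 did not pass the test (edgeR, adjusted p = 0.168). Without Control replicate 1 and IS replicate 4, Lifr with a log2 change of 0.71 and Jak2 with 0.72 were both called, where 45.4% of all genes were called in place of 7.94%. The other 7 genes differed by log2 values of -0.17 to 0.10 between IS and Control, and none was called with or without these libraries. Between IS and oxLDL, tested directly, 0 of 9 genes were called by edgeR and by DESeq2, and 0 had an unadjusted p under 0.05. Of all genes edgeR called 0.0149% and DESeq2 0.204%, and 1047 of 20139 had an unadjusted p under 0.05 in edgeR. The log2 difference of IS from oxLDL was -0.29 for Lifr and -0.06 for Jak2, with SE of at most 0.18.

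**Figure D2:**
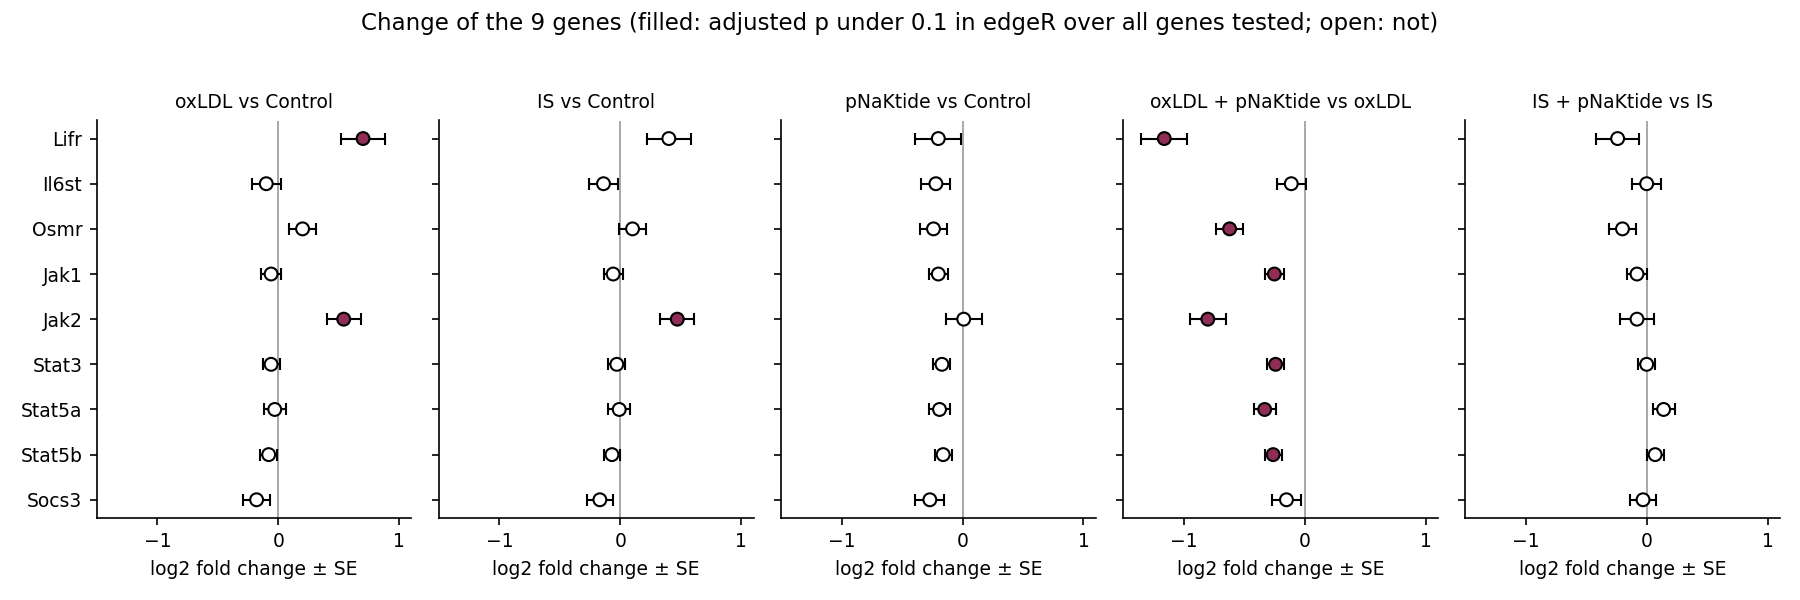
Log2 fold change (x axes) with its SE for the 9 genes in 5 comparisons of groups of 5 libraries. Filled points have an adjusted p under 0.1 in edgeR. With oxLDL + pNaKtide against oxLDL 7 points are filled and all 9 lie below 0, from -1.16 for Lifr to -0.11 for Il6st.

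The third comparison asked whether pNaKtide changed the genes in cells given oxLDL. All 9 were lower in the fit with oxLDL + pNaKtide than with oxLDL alone, and 7 of 9 were called, all lower. Of all genes tested 48.3% were called and 26.1% were called lower. The median log2 change of the 9 genes was -0.26, and -0.09 over all genes. The 7 called genes were also those whose groups did not overlap, which held for 28.4% of all genes. Lifr, Jak2 and Osmr fell most, the other 4 by less, and Il6st and Socs3 did not pass the test. When counts were scaled only by library size, the median of all genes went from -0.09 to -0.30, and all 9 genes were then called lower, as were 38.1% of all genes in place of 26.1%. Without Control replicate 1 and IS replicate 4, which are in neither group but share the model, 7 of the 9 and 50.7% of all genes were called.

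Of the receptors, Lifr had 24.0, 29.4, 28.4, 18.2 and 24.8 CPM with oxLDL + pNaKtide, every library below the lowest oxLDL library at 46.3. The level fell by 1.16 ± 0.19 on the log2 scale, 2.23-fold lower (edgeR, adjusted p = 3.39e-05). Among the 30 libraries the lowest Lifr value, 18.2, was that of oxLDL + pNaKtide replicate 4. The ratio of Lifr to Il6st was 0.21 ± 0.0673 in FPKM.

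Osmr, the subunit that serves oncostatin M, had 25.0, 27.9, 23.3, 18.2 and 25.5 CPM with both agents. With oxLDL alone it had 41.6, 35.5, 30.5, 38.8 and 37.9 CPM, and the groups did not overlap. Its log2 change was -0.62 ± 0.11 (edgeR, adjusted p = 8.49e-05). Il6st, the shared subunit, showed no such separation, with 142, 148, 89.3, 106 and 152 CPM against 143, 139, 119, 134 and 149 CPM. Replicates 3 and 4 with both agents were below all oxLDL libraries and 1 of the other 3 was above them. Its log2 change was -0.11 ± 0.12 (edgeR, adjusted p = 0.512).

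Of the kinases, Jak2 had 16.6, 18.0, 20.3, 12.1 and 13.1 CPM with oxLDL + pNaKtide, all below the lowest oxLDL library at 24.6. The log2 change was -0.80 ± 0.15, 1.74-fold lower (edgeR, adjusted p = 9.28e-05). Jak1, the kinase on which gp130 signaling chiefly depends, had 202, 210, 153, 187 and 203 CPM, against 228, 212, 240, 241 and 215 CPM with oxLDL. The groups were close, with 210 as the highest value of the first and 212 as the lowest of the second. The log2 change was -0.25 ± 0.08 (edgeR, adjusted p = 0.00997).

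The STAT genes fell by similar amounts. Stat3, the main STAT of the IL6 family, had 170, 161, 160, 156 and 176 CPM with both agents, and 185, 199, 192, 201 and 193 with oxLDL, without overlap. Its log2 change was -0.24 ± 0.07 (edgeR, adjusted p = 0.00718). Stat5a had 93.4, 84.4, 107, 78.0 and 101 CPM against 112, 118, 119, 116 and 117, with a log2 change of -0.33 ± 0.09 (edgeR, adjusted p = 0.00257). In the oxLDL group Stat5a varied little, with a coefficient of variation of 2.50%, and with both agents it was 12.5%. Stat5b had 58.7, 56, 54.2, 59.3 and 61.1 CPM against 74.3, 67.9, 64.6, 67.5 and 72.7, with a log2 change of -0.26 ± 0.07 (edgeR, adjusted p = 0.00456). The ratio of Stat5a to Stat5b in FPKM was 1.31 ± 0.102 with oxLDL and 1.25 ± 0.184 with both agents, so the overlap of these ranges was wide (1.17 to 1.43 and 1.02 to 1.53).

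Socs3, the feedback inhibitor whose window above holds the STAT match, had 11.7, 13.0, 14.2, 16.4 and 12.9 CPM with both agents and 14.6, 13.9, 14.5, 17.7 and 14.8 CPM with oxLDL. The groups overlapped, and the log2 change was -0.15 ± 0.12 (edgeR, adjusted p = 0.310). The ratio of Socs3 to Stat3 in FPKM was 0.256 ± 0.0221 with oxLDL and 0.275 ± 0.0471 with both agents.

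The size of these changes moved with the GC content of the transcripts. The GC classes below hold only genes whose log2 CPM averaged 1 or more. Genes under 45% GC, 3143 in number, had a median log2 change of 0.42 with oxLDL against Control and -0.57 with oxLDL + pNaKtide against oxLDL. Genes of 55% GC or more, 2644 in number, had medians of -0.31 and 0.36. Lifr (44.4% GC) and Jak2 (44.3%) are in the first class and changed in its direction by more than its median. Stat5a (57.9%) and Socs3 (58.7%) are in the last class, and with oxLDL + pNaKtide their log2 changes were -0.33 and -0.15. Stat3 (52.5%) and Stat5b (52.7%) likewise fell while the median of the genes of 50 to 55% GC was 0.17.

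Taking each library's smooth trend of counts over GC content and length out of the fit shrank some of the changes and enlarged others. With oxLDL against Control, Lifr (0.36) and Jak2 (0.25) were still called higher, and Il6st (-0.28) and Jak1 (-0.21) were then called lower, so 4 of 9 genes were called where 19.9% of all genes were. In oxLDL + pNaKtide against oxLDL, 7 genes were again called, but 2 of the previous 7 were lost, and of all genes 36.9% were called in place of 48.3%. Lifr had a log2 change of -0.63, Jak2 -0.39, Stat3 -0.21, Stat5a -0.50 and Stat5b -0.32, all still called. Osmr (-0.18) and Jak1 (0.02) were no longer called, Socs3 (-0.49) was called lower, and Il6st (0.22) turned to a called higher value. Whether the trend came from the libraries or from the cells was not tested.

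**Figure D3:**
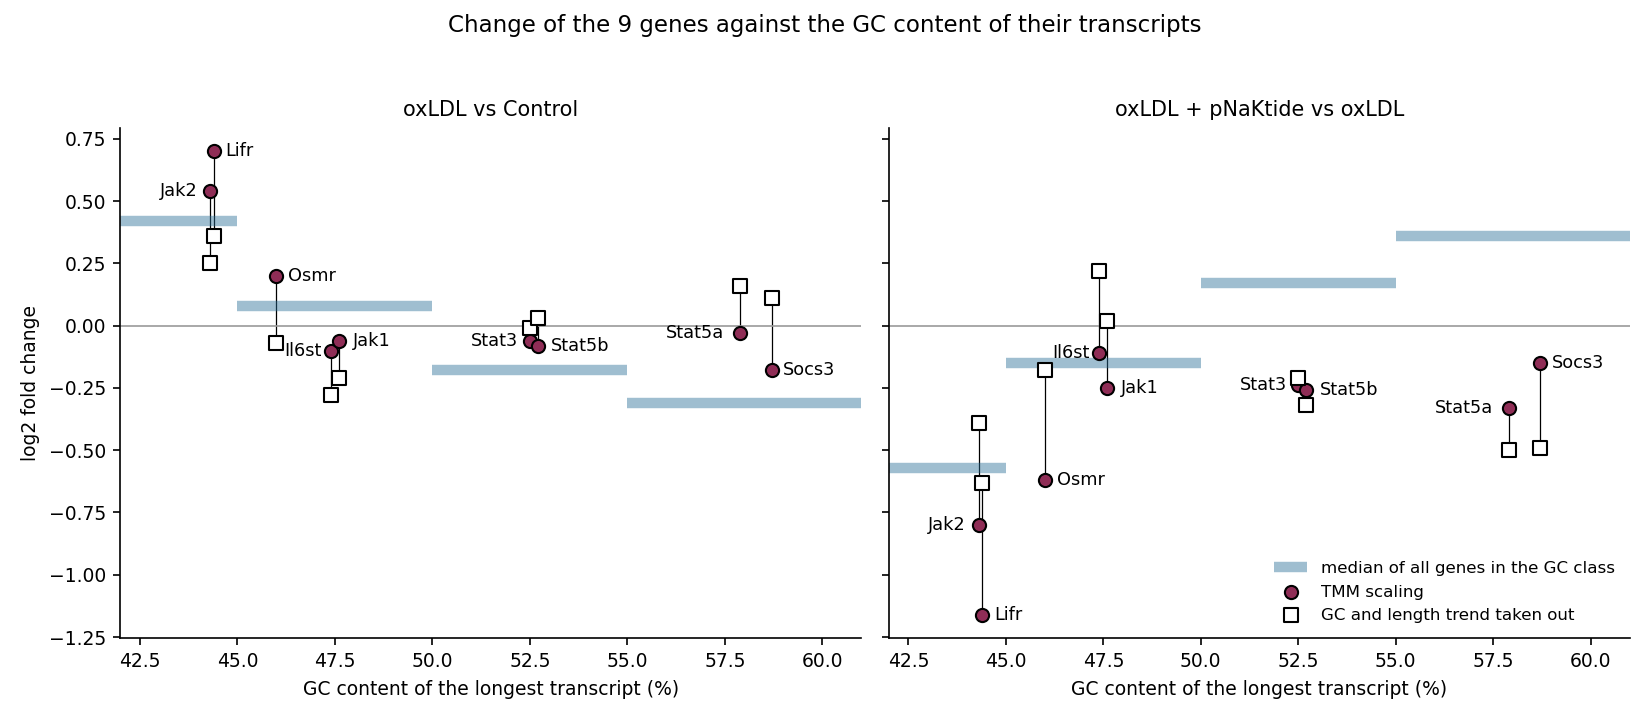
Log2 fold change (y axis) of the 9 genes against the GC content of their longest transcript in percent (x axis). Filled circles use TMM scaling, and open squares have the library trends with GC content and length taken out. Bars are the medians, in each GC class, of all genes whose log2 CPM averaged 1 or more. In oxLDL + pNaKtide against oxLDL, Lifr moves from -1.16 to -0.63 and Socs3 from -0.15 to -0.49.

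Cells given oxLDL + pNaKtide were also compared with Control, a comparison that shares its first group with the one above, and 5 of 9 genes were called, all lower. Of all genes 5.2% were called and 3.16% were called lower. Osmr had a log2 change of -0.42 ± 0.11, Jak1 -0.31 ± 0.08, Stat3 -0.30 ± 0.07, Stat5a -0.36 ± 0.09 and Stat5b -0.34 ± 0.07, with adjusted p between 0.00952 and 0.0368 in edgeR. In these 5 genes the groups did not overlap, which held for 4.03% of all genes. Lifr (-0.46 ± 0.19) and Jak2 (-0.26 ± 0.15), the genes that had risen with oxLDL, did not pass the test. The 5 genes were still called without Control replicate 1 and IS replicate 4, with log2 changes between -0.38 and -0.30, and Socs3 (-0.40) was called too, where 6.39% of all genes were. A model of these groups alone called 0 of the 9 genes at a threshold of 0.1 in edgeR, and 0.0546% of all genes. Jak1 was no longer called with the GC and length trend taken out (-0.19), and Osmr lost its call without Control replicate 3 (-0.38) or without oxLDL + pNaKtide replicate 4 (-0.33).

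The peptide alone left 0 of the 9 genes past the threshold in edgeR and 0 in DESeq2. Of all genes edgeR called 0.00497% and DESeq2 0.283%. At an unadjusted p under 0.05 in edgeR there were 6 of the 9 genes and 1233 of all 20139 tested. Of the 9 genes, 8 had a log2 change below 0, with a median of -0.20 beside -0.02 for all genes. The lowest change was -0.27 for Socs3 (14.2 ± 0.931 against 17.1 ± 2.31 CPM), and Jak2 was at 0.01. Lifr had 19.4, 22.1, 38.3, 35.1 and 34.7 CPM with pNaKtide, so replicates 1 and 2 were below all control libraries and the others within the control range.

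With IS, pNaKtide did not move the genes past the threshold. Of the 9 genes 0 were called with IS + pNaKtide against IS by edgeR and by DESeq2, and 0 had an unadjusted p under 0.05. Of all genes edgeR called 0% and DESeq2 0.0695%, and 564 of 20139 had an unadjusted p under 0.05 in edgeR. Lifr had 49.2, 36.5, 33.3, 36.0 and 38.9 CPM with both agents, and its log2 change was -0.24 ± 0.18. Jak2 had 24.9, 23.0, 27.7, 26.5 and 24.6 CPM, with a log2 change of -0.08 ± 0.14. Against Control, IS + pNaKtide left 0 of 9 genes called by edgeR, 1 by DESeq2 and 1 at an unadjusted p under 0.05. Of all genes edgeR called 0.358% and DESeq2 7.38%, and 4022 of 20139 had an unadjusted p under 0.05 in edgeR. The highest change there was that of Jak2, at 0.39. Without Control replicate 1 and IS replicate 4 edgeR called 4 of the 9 genes, Jak2 (0.53) and Lifr (0.33) higher and Jak1 (-0.18) and Socs3 (-0.26) lower, where 32.4% of all genes were called in that fit. Jak2 was also called without Control replicate 1 alone (0.53), by DESeq2 (0.38) and with the replicate number as a block (0.40). Of all genes 26.7% were called without Control replicate 1, 7.38% by DESeq2 and 6.64% with the block.

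Whether the change with pNaKtide differed between backgrounds was tested as a difference between log2 changes. The change in cells given oxLDL was more negative than in Control for Lifr (-0.95 ± 0.26), Jak2 (-0.81 ± 0.21) and Osmr (-0.38 ± 0.16), with adjusted p of 0.0266, 0.0242 and 0.0968 in edgeR. So 3 of 9 genes were called, where 24.6% of all genes were. The same 3 were called without Control replicate 1 and IS replicate 4, Lifr at -1.12, Jak2 at -0.96 and Osmr at -0.43, where 40% of all genes were. For the STAT genes and Jak1 this difference was -0.14 to -0.05 and was not called. Against the change in cells given IS, 6 of 9 genes were called, all more negative with oxLDL, where 29.3% of all genes were called. These were Lifr (-0.92), Jak2 (-0.72), Stat5a (-0.47), Osmr (-0.42), Stat5b (-0.33) and Stat3 (-0.24). With the GC and length trend taken out, the differences from Control were -0.51 for Lifr and -0.46 for Jak2, and those from IS were -0.46 and -0.33, all still called. The Stat3 call held in 6 of 13 alternatives and not without Control replicate 1 and IS replicate 4, where 5 of 9 genes and 24.3% of all genes were called. The call of Osmr held in 10 of 13 alternatives, and that of its difference from Control in 8 of 13, both not with the GC and length trend taken out. When each of the 20 libraries behind a difference was left out in turn, Osmr was still called against Control in 6 of 20 fits and against IS in 16 of 20, and Stat3 against IS in 7 of 20. Between IS and Control the change with pNaKtide differed for 0 of 9 genes in edgeR and in DESeq2, and edgeR called 0% of all genes. The lowest unadjusted p of the 9 in edgeR were 0.0105 for Stat5a (0.33) and 0.0404 for Stat5b (0.22). In this difference and in pNaKtide against Control, IS + pNaKtide against IS and IS against oxLDL, the count of called genes of the 9 was 0 in edgeR also without Control replicate 1 and IS replicate 4.

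A wider list of 88 genes of cytokine receptor and JAK-STAT signaling was read beside the 9 genes, of which 80 passed the filter. Several ligands of the LIF and IL6 receptors had few counts. Lif had 59 counts and Il6 had 17 over all 30 libraries, Il11 had 36, Cntf had 37 and Osm had 0. Ctf1, which encodes cardiotrophin 1, a ligand of the LIF receptor with gp130, had 3360 counts, and its group means lay between 8.87 and 10.5 CPM. Clcf1, a cytokine of the IL6 family that signals through gp130 and the LIF receptor, was also expressed. It rose from 8.34 ± 0.668 CPM in Control to 10.4 ± 1.24 CPM with oxLDL, and stood at 8.18 ± 1.36 CPM with oxLDL + pNaKtide. The log2 changes of 0.32 and -0.34 were both called, also with the GC and length trend out.

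With oxLDL against Control, 18 of the 80 genes rose and 14 fell, where 18.1% of all genes were called higher and 18% lower. In oxLDL + pNaKtide against oxLDL, 8 rose and 30 fell, where 22.1% were called higher and 26.1% lower. The median log2 change of the list was 0.11 and -0.17, beside 0.04 and -0.09 for all genes. The first count depended on single libraries, with 17 genes called without Control replicate 2, 17 without Control replicate 4 and 18 without oxLDL replicate 2, in place of 32. In these fits the share of all genes called fell as well, to 25.4%, 24.7% and 26.2% in place of 36%. Without Control replicate 1 and IS replicate 4, 26 rose and 17 fell with oxLDL, where 25.1% of all genes were called higher and 22.5% lower. In oxLDL + pNaKtide against oxLDL 10 then rose and 33 fell, where 23.2% were called higher and 27.5% lower. Scaling by library size alone moved the calls over all genes to 4963 higher and 2276 lower with oxLDL, in place of 3637 and 3622, and to 2696 higher and 7680 lower with oxLDL + pNaKtide, in place of 4458 and 5264.

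By role, 1 of 17 (5.88%) other cytokine receptor genes rose and 9 (52.9%) fell with oxLDL + pNaKtide against oxLDL, beside 22.1% and 26.1% of all genes. Differences between roles were not tested. Ifngr2, a subunit of the interferon gamma receptor, fell from 42 ± 3.01 to 24.2 ± 4.41 CPM, a log2 change of -0.79 ± 0.12 (edgeR, adjusted p = 1.70e-05). Ifnar1 and Ifnar2, both subunits of the type I interferon receptor, moved in opposite directions, by -0.51 and 0.47, and both changes stayed called with the trend out (-0.42 and 0.44). With oxLDL against Control, Il15ra rose by 0.55 and Il11ra1, the receptor subunit for IL11 that pairs with gp130, fell by 0.28 on the log2 scale. With the trend out Il15ra was still called (0.46) and Il11ra1 was not (-0.09). They were at 0.76 and -0.34, both called, when Control replicate 1 and IS replicate 4 were left out.

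Among the 5 other JAK and STAT genes tested, Jak3 rose by 0.50 and Stat2 was lower by 0.31 on the log2 scale with oxLDL + pNaKtide, both called also with the trend out (0.23 and -0.31). Stat6, the STAT of IL4, fell by 0.31 with oxLDL, and by 0.16 with the trend out, still called. Its change was -0.38 when Control replicate 1 and IS replicate 4 were left out. Of the 15 negative regulators, 2 (13.3%) rose and 6 (40%) fell with oxLDL + pNaKtide against oxLDL, beside 22.1% and 26.1% of all genes. Socs5 fell from 46.8 ± 1.32 to 32.2 ± 3.13 CPM and Socs2 from 27.0 ± 1.68 to 19.9 ± 1.28 CPM, with log2 changes of -0.54 and -0.44, while the phosphatase genes Ptpn1 and Ptpn6 rose by 0.28 and 0.32. With the trend out Socs5 was at -0.30 and still called, and Socs2 was at 0.00 and not called. Socs4 rose with oxLDL by 0.76 ± 0.20 (edgeR, adjusted p = 0.0101), a change that was 1.04 without Control replicate 1 and IS replicate 4 but 0.14 with the trend out, and Ptpn1 fell by 0.29. Neither this call of Socs4 nor any of the calls of Ptpn1 and Ptpn6 held with the trend out.

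None of 10 adaptor genes rose and 7 (70%) fell with oxLDL + pNaKtide against oxLDL, beside 22.1% and 26.1% of all genes. Among the 7 were Sos2 (-0.83) and Stam (-0.56). With the trend out Sos2 was still called lower (-0.36), and Stam turned to a called higher value (0.25). With oxLDL against Control, Pik3r1, the regulatory subunit of PI3 kinase, rose by 0.60 and Shc1 fell by 0.19, and with the trend out Pik3r1 was still called (0.32) and Shc1 was not (-0.07). With Control replicate 1 and IS replicate 4 left out they were at 0.88 and -0.22, both called. Of the 24 target genes of STAT3 signaling, 3 (12.5%) were higher and 6 (25%) lower with oxLDL + pNaKtide against oxLDL, beside 22.1% and 26.1% of all genes. With oxLDL against Control 4 (16.7%) were higher and 5 (20.8%) lower, near the 18.1% and 18% of all genes, and without Control replicate 1 and IS replicate 4 it was 6 and 7, beside 25.1% and 22.5% of all genes. The acute phase genes Serpina3n and Hp rose with oxLDL + pNaKtide, by 0.54 ± 0.12 and 0.56 ± 0.14, where the STAT genes fell, and Hif1a and Igf1 fell by 0.72 and 0.68. Serpina3n had 62.5 ± 10.2 CPM in Control, 44.6 ± 3.15 with oxLDL and 65.1 ± 11.8 with both agents, and both changes were called also with the trend out. The changes of Hp, Hif1a and Igf1 were 0.15, -0.06 and 0.24 with the trend out, and none was called.

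**Figure D4:**
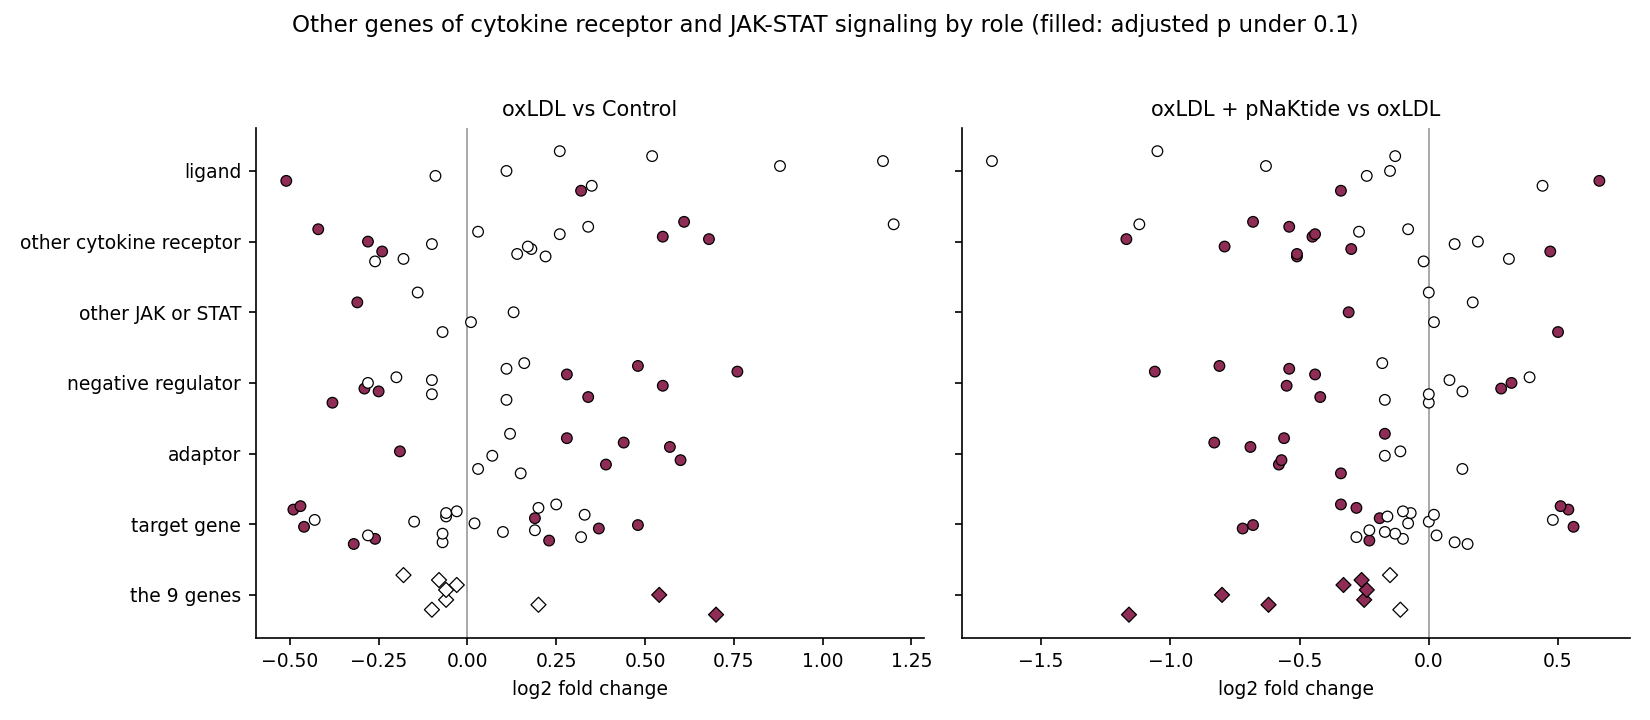
Log2 fold change (x axes) of the other listed genes by role, 1 point per gene, and of the 9 genes as diamonds, in oxLDL against Control and oxLDL + pNaKtide against oxLDL. Filled points have an adjusted p under 0.1 in edgeR. In the right panel 7 of 10 adaptor genes and 7 of the 9 genes are filled below 0, as were 26.1% of all genes tested.

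Over the 30 libraries, which share treatments, the profile of Lifr in log2 CPM was nearest to Rest (Pearson's r = 0.958), Eif3a (0.955) and Sema3a (0.952) among 12580 genes. Rest had 31.6 CPM in Control, 47.5 with oxLDL and 19.6 with oxLDL + pNaKtide. The transcripts of Eif3a (44.5% GC) and Sema3a (40.8%) are, like that of Lifr, of low GC content, and that of Rest has 47.2%. Among the 9 genes Jak2 (r = 0.885) and Osmr (0.875) were closest to Lifr, ranking 542 and 721. The profile of Stat3 was nearest to Trappc10 (0.907), Mau2 (0.903) and Abcb10 (0.894), and Stat5a, its neighbor on the chromosome, ranked 8 with r = 0.875. Socs3 followed Snai1 (0.883), Loxl3 (0.834) and Olfml2b (0.833), and its r with Stat3 was 0.202. These correlations across libraries are descriptions.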

How the data were processed

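The data were 30 RNA libraries of 3T3-L1 cells, 5 in each of 6 groups. The authors made stranded mRNA libraries, trimmed the paired reads by Trimmomatic 0.38, aligned them to GRCm38 with HISAT2 2.1.0 and counted them per gene with GenomicAlignments, and the counts were deposited without normalization or pooling. The deposited FPKM values were scaled by the authors for depth and gene length. They served for levels between genes, ratios and 1 alternative. A table of normalized counts was not used here. For the counting, annotation release and strand setting are not given in the sources used. Per the labels each library belongs to 1 group, and all 30 entered every result. All 60 pairs of libraries within groups differed by more than counting noise, and each library was counted once. The closest were IS + pNaKtide replicates 3 and 4 (chi-square per degree of freedom 1.28), pNaKtide replicates 1 and 2 (1.35) and pNaKtide replicates 4 and 5 (1.37), while the other pairs of these groups had 3.50 to 17.2. Whether such a pair came from 1 culture is not in the labels and was not tested, and p-values with these groups would then be too small.

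The tools were edgeR 4.0.16, DESeq2 1.42.0, limma 3.58.1 and mgcv 1.9.3 under R 4.3.3. Tables were handled by pandas 2.3.3, numpy 2.4.6 and scipy 1.17.1 under Python 3.11.15. A gene was tested if its counts summed to more than 14, which left 20139 of 54232. TMM scaled the counts, and 1 robust quasi-likelihood model of edgeR held the 6 groups (common biological coefficient of variation 14%), giving 8 comparisons of groups and 3 differences between changes. Tests were two-sided, and each comparison had its own Benjamini-Hochberg adjustment, with 0.1 as threshold. A prior count of 2 went into log2 CPM. GC content is that of the longest transcript of GENCODE on GRCm38, known for 99.72% of genes. Alternatives were DESeq2, its size factors (RLE), library size alone, other filters on low counts, an adjusted p of 0.05, limma-trend on log2(FPKM + 1), the compared groups alone, a replicate block, offsets for a smooth trend of each library with GC content and length, and leaving out each library or the pair Control replicate 1 and IS replicate 4. On simulated data with 19834 genes tested, oxLDL against Control, 48 of 100 genes changed by 0.5 on the log2 scale and 94 of 100 changed by 1 were called, with 7 unchanged genes. The members, gene lists and markers were chosen with earlier results of these data known. Of the wider list, the text names per role at most 2 genes in each direction with the smallest adjusted p in oxLDL + pNaKtide against oxLDL and at most 1 in oxLDL against Control, besides the ligands at low counts and Ctf1, named after their values were seen. Some genes that this rule picks are not reported here. Genes most like a member are the 3 with the highest r among genes whose log2 CPM averaged 1 or more.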

Additional observations from a re-analysis of the deposited data

Results flagged for a closer look

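Single libraries stood apart from the other 4 of their group by Dixon's test in 5 of 54 groups of values tested, where chance gives about 1 in 20. Lifr was high in Control replicate 1, at 49.1 CPM, and low in IS replicate 4, at 25.5 CPM. Jak2 was also low in IS replicate 4, at 18.2 CPM. Stat5b was high in Control replicate 5, at 83.8 CPM, and Socs3 was high in oxLDL replicate 4, at 17.7 CPM. Control replicate 1 and IS replicate 4 also stood apart from their groups on the first principal component, as did oxLDL + pNaKtide replicate 4 with 67.5.

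The change with pNaKtide differed between cells given oxLDL and Control cells, as a difference of log2 changes in edgeR, for Lifr (-0.95), Jak2 (-0.81) and Osmr (-0.38). The Osmr call held in 8 of 13 alternatives, not with the GC and length trend out (-0.02), and in 6 of 20 fits without single libraries. Between cells given oxLDL and cells given IS it differed for Lifr (-0.92), Jak2 (-0.72), Stat5a (-0.47), Osmr (-0.42), Stat5b (-0.33) and Stat3 (-0.24).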

How the results depend on the processing

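Shares of all genes called in the same fit, where given, are in brackets as percent. With oxLDL + pNaKtide against oxLDL (48.3%), between 7 and 9 of the 9 genes were called under all 13 alternatives and 7 without any single library. Without Control replicate 1 and IS replicate 4 (50.7%) and with the GC and length trend out (36.9%) it was 7. These were not the same genes with the trend out, where Osmr and Jak1 lost the call, Socs3 was called lower and Il6st higher. With oxLDL against Control (36%), 4 genes were called without Control replicate 1 and IS replicate 4 (47.6%), and 4 with the GC and length trend out (19.9%), also with the replicate block (22.2%), and 2 to 4 without single libraries. With IS against Control (7.94%), 2 were called without these libraries (45.4%) and 2 with the trend out and the replicate block (6.27%). At an adjusted p of 0.05 (0.646%) and in a model of the compared groups (0%) it was 0. Without single libraries (0.0745% to 34.5%) it was 0 to 2. With oxLDL + pNaKtide against Control (5.2%), 0 were called in a model of the compared groups (0.0546%). With IS + pNaKtide against Control (0.358%), 4 were called without Control replicate 1 and IS replicate 4 (32.4%), 1 by DESeq2 (7.38%) and 1 with the replicate block (6.64%). With the block and trend out (3.67%) it was 2, and without single libraries (0.00993% to 26.7%) it was 0 to 1. Library size alone gave 5 for the difference of changes between oxLDL and Control (26.2%, in place of 24.6%). Of the wider list, 17 to 42 genes were called with oxLDL without single libraries. Of 941 alternatives for 37 single gene results, 845 kept direction and call, 67 lost the call, 12 gained it and 17 changed sign. The latter, none called but Il6st, were Lifr with IS + pNaKtide against Control (-0.01 with the trend out, with and without the block). With oxLDL + pNaKtide against oxLDL they were Il6st (0.22 with the trend out, with and without the block, and -0.17 to 0.00 without single libraries, with 0.00 without oxLDL + pNaKtide replicate 3) and Jak1 (0.02 with the trend out, with and without the block). For Jak2 with pNaKtide they were -0.02 by library size and, with -0.10 to 0.16 without single libraries, -0.10 to 0.00 in 5 of these. For Jak2 in IS against oxLDL they were 0.04 without IS replicate 4 (-0.11 to 0.04 without single libraries), 0.04 with Control replicate 1 also out, 0.01 with the trend out and 0.00 with the block and trend out. The causes were not tested. Same-number libraries had correlations of deviations over 0.1 in 37 of 75 pairs (median 0.0996) and other libraries in 114 of 300 (median -0.0342), and as not every pair passed 0.1 the numbers were not taken to pair the libraries. Jak2 and Socs3 had the fewest counts of the 9 genes, 8190 and 5241 over 30 libraries.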
